A study of Mus musculus with 8 samples.

Results

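The hematopoietic growth factor receptors described here are *Csf2ra*, *Csf2rb*, *Csf2rb2*, *Csf1r*, *Csf3r*, *Il3ra*, *Flt3*, *Kit* and *Epor*, 9 of the 12393 genes on the arrays. They were taken by name, with every probe set whose only gene symbol was one of them, which gave 13 of 22626 probe sets. The cells were splenic CD11b+Gr-1+ immature myeloid cells (IMCs), sorted from 4 male Tff2-/- mice on a C57BL/6 background at 16 weeks of age. The mice had received 3% dextran sodium sulfate (DSS), which injures the colon, for 5 days, and were used 14 days after it was withdrawn. The IMCs of each animal were split and cultured for 7 days with GM-CSF (Csf2, 5 nM in the labels, another dose in the methods) alone, the control, or with GM-CSF and 3 µM mouse recombinant TFF2 (rTFF2), a secreted trefoil peptide. The loss of *Tff2*, the DSS and the GM-CSF were thus common to both groups, and no culture was without GM-CSF. Each culture was hybridized to 1 array, which gave 4 control and 4 rTFF2 arrays in pairs by mouse.

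These receptors carry the signals by which blood cells are formed. The receptors of GM-CSF, IL-3, G-CSF and erythropoietin have no kinase of their own and signal through bound Janus kinases and STAT proteins, whereas CSF1R, FLT3 and KIT are receptor tyrosine kinases. GM-CSF and IL-3 are each bound by their own alpha chain, which pairs with a common beta chain, and mice have a second beta chain gene, *Csf2rb2*, for IL-3. G-CSF receptor is best known on neutrophils and their precursors, CSF1R on monocytes and macrophages, KIT on progenitors, mast cells and early basophils, FLT3 on progenitors and dendritic cells, and the erythropoietin receptor on red cell precursors.

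With rTFF2, 4 of the 9 receptor genes had higher RNA and none had lower RNA. *Csf3r* rose 5.25-fold, and *Kit*, *Csf2ra* and *Il3ra* rose by 1.91-fold, 1.36-fold and 1.33-fold. The genes of the beta chains and *Csf1r*, all strongly expressed, differed by at most 0.21 on the log2 scale and did not pass the test, and *Flt3* and *Epor* were at background in both groups. By probe set, 6 of 13 rose and 0 fell in the limma fit with the mouse as a block (adjusted p under 0.05), beside 13.7% of all probe sets called higher and 25.7% called in either direction. Of these 6, 5 lay above background, the sixth being a *Kit* probe set (1415900_a_at) under it on all 8 arrays. At an unadjusted p under 0.05 the counts were 9 higher and 0 lower, but the share of all probe sets at that threshold was not counted. By gene, the share of all genes called higher at an adjusted p under 0.05 was 14.5%. Of the 13 probe sets, 11 were higher with rTFF2 in each of the 4 mice (21.5% of all probe sets), and in 6 the rTFF2 values all lay above the control values (12.8% of all). The median difference of the 13 probe sets was 0.21 on the log2 scale, against -0.02 over all probe sets. Without the mouse block 3 probe sets were called higher (11.7% of all probe sets).

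**Figure D1:**
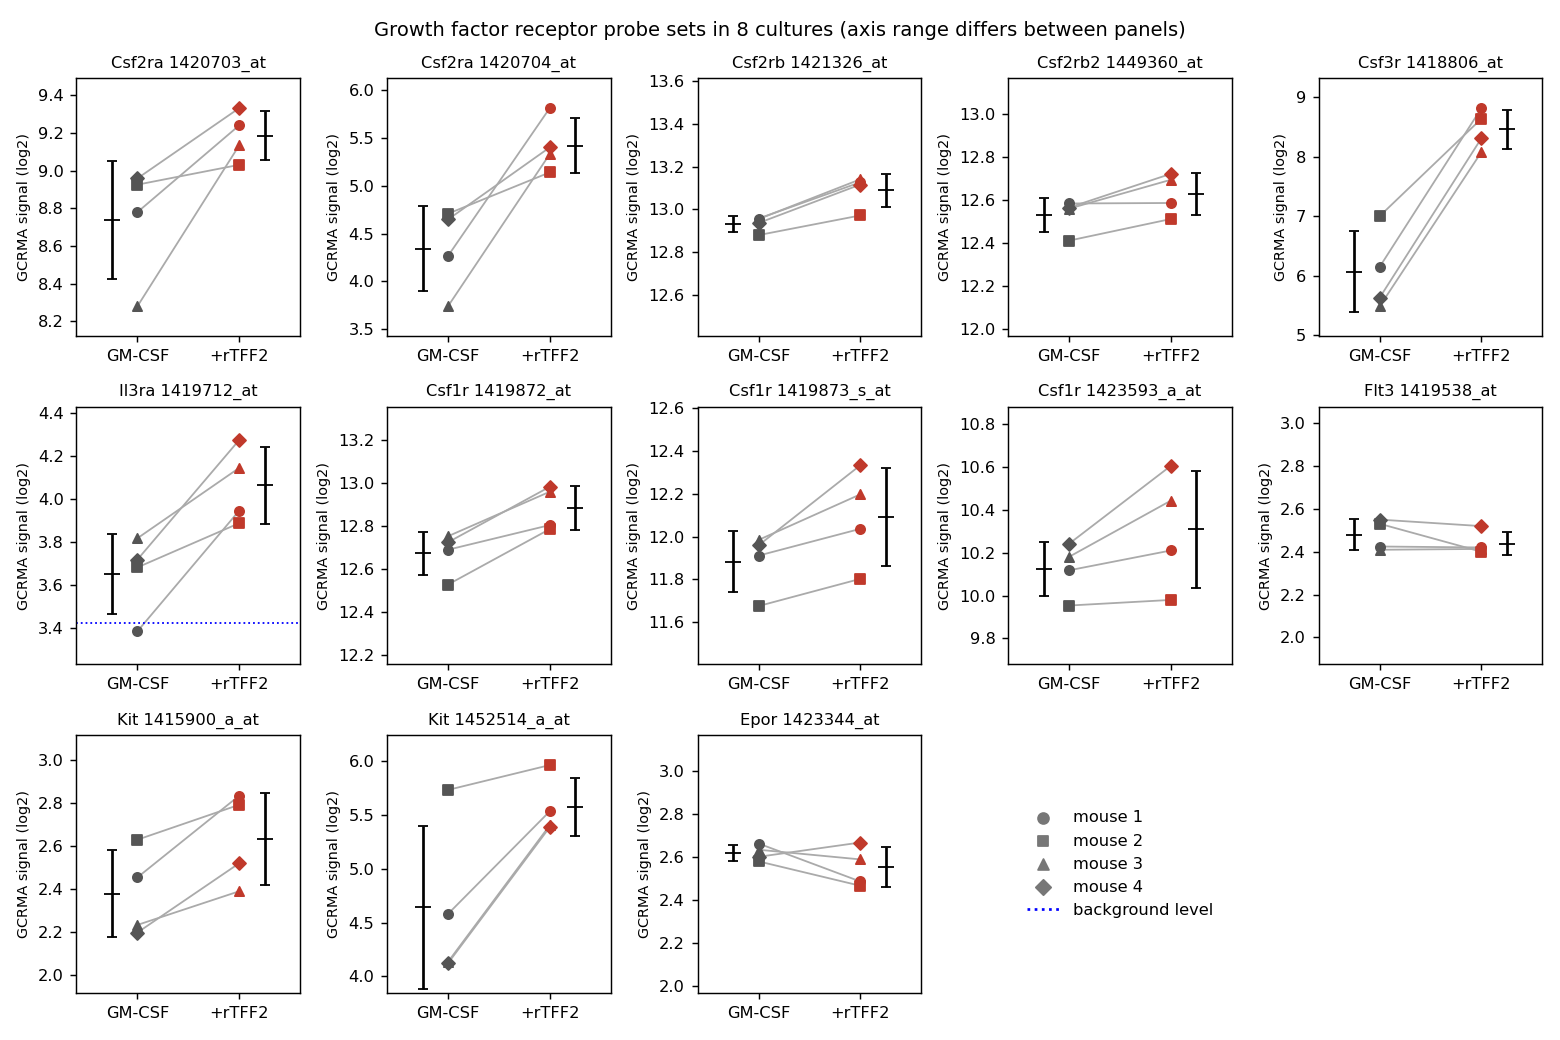
Deposited log2 signal (vertical axis) of the 13 receptor probe sets in the control and the rTFF2 culture of each mouse, with lines joining the 2 cultures of a mouse, bars for the mean ± SD (n = 4) and the background level dotted where it falls within the axis. The lines of *Csf3r* climb most steeply, from 5.49 to 7.01 in the controls to 8.08 to 8.82 with rTFF2, whereas *Flt3* and *Epor* lie at background.

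All values are log2 signals, so that a difference of 1 is a doubling of the signal, and levels of different probe sets are not compared because probes differ in brightness. A background level of 3.42 was set from 43 genes of other tissues, and 10 of the 13 receptor probe sets exceeded it in at least one group. In bulk RNA of a culture, fewer cells of a type and less RNA per cell cannot be told apart.

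The stretches of 250 bases before the starts of the 4 genes that rose are shown to set side by side the sites that myeloid factors could read there. RefSeq promoters (build GRCm38.p6) were matched for 7 of the 9 genes, and those of *Csf3r* (chr4:126024409-126024658, plus strand), *Csf2ra* (chr19:61228419-61228668, minus strand), *Kit* (chr5:75574737-75574986, plus strand, first of 2 entries) and *Il3ra* (chr14:14346245-14346494, plus strand) are printed 5′ to 3′, each ending at the base before the start. Capitals mark GAGGAA, the core of PU.1 sites, and TTGCNNAA, a loose pattern for C/EBP sites. The third sequence searched, on both strands as the others, was AGATAA, which factors such as GATA2 bind.
Csf3r: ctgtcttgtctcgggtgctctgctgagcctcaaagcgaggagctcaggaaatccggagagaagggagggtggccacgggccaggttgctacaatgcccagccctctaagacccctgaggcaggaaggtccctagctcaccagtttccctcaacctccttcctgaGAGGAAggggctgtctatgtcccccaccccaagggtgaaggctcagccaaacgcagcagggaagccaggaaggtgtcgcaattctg
Csf2ra: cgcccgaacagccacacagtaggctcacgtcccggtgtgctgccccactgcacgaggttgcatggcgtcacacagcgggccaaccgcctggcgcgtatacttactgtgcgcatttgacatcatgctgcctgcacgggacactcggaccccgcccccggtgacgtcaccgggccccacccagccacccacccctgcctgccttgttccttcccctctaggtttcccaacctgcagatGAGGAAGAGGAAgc
Kit: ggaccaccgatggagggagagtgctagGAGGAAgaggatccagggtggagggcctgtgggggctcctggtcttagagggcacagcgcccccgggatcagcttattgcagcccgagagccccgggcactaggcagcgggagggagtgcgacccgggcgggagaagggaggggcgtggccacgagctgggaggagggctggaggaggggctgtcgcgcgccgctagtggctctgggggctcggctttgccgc
Il3ra: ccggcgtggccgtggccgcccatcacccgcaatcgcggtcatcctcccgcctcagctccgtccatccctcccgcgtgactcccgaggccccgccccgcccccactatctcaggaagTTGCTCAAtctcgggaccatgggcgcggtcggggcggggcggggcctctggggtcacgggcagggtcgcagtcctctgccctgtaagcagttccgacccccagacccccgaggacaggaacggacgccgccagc
*Csf3r* held GAGGAA at 86 to 81 bases before its start, *Kit* at 223 to 218, and *Csf2ra* at 14 to 9 and again at 8 to 3, in direct succession. *Il3ra* held no GAGGAA but had TTGCNNAA at 134 to 127. Among 27025 promoters of the same length, 23.1% held GAGGAA, 9.55% TTGCNNAA and 10.3% AGATAA. Of the genes that did not rise, *Csf2rb2* held GAGGAA on the other strand at 167 to 162, *Epor* held AGATAA on the other strand at 54 to 49, and none of the 3 was found for *Flt3*.

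The receptor of G-CSF, the growth factor that drives neutrophil production, showed the steepest rise. *Csf3r* (1418806_at) had log2 signals of 6.15, 7.01, 5.49 and 5.64 in the control cultures of mice 1 to 4 and 8.82, 8.64, 8.08 and 8.31 with rTFF2. The lowest rTFF2 culture lay above the highest control, that of mouse 2. The mean rose from 6.07 ± 0.68 (SD, n = 4) to 8.46 ± 0.33 (SD, n = 4), a difference of 2.39 (SE 0.18, 95% interval 1.98 to 2.81) or 5.25-fold (3.93 to 7.01), with an adjusted p of 3.3e-04 from limma. In single mice the rise was 2.67, 1.64, 2.59 and 2.68, least in mouse 2, whose control was already high. Ordered by the size of the rise, *Csf3r* was at place 55 of 12393 genes. Its rise exceeded that of each of the 12 other receptor probe sets in 4 of 4 mice. The exact sign-flip test of these differences gave p = 0.125 (two-sided), the smallest value that 4 pairs allow. *Csf3r* had the largest mean rise of the receptor probe sets in these same data, so this comparison favours it from the start.

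The alpha chain of the GM-CSF receptor, which binds the ligand present in every culture, was measured by a pair of probe sets that both rose but by different amounts. *Csf2ra* 1420703_at had signals of 8.78, 8.93, 8.28 and 8.96 in the controls and 9.24, 9.03, 9.13 and 9.33 with rTFF2. The groups did not overlap, although mouse 2 changed by only 0.11. The difference was 0.45 (SE 0.12, 95% interval 0.17 to 0.73, adjusted p = 0.033 from limma), and without the block the adjusted p was 0.058. The other probe set, 1420704_at, had signals of 4.27, 4.71, 3.74 and 4.65 against 5.81, 5.14, 5.33 and 5.40, again without overlap. Its mean rose by 1.08 (SE 0.20, 95% interval 0.61 to 1.55), or 2.12-fold (1.53 to 2.93), with an adjusted p of 0.0082. The rise was larger with 1420704_at in 4 of 4 mice, by 0.63 ± 0.35 (SD over mice, exact sign-flip p = 0.125, the smallest possible). Over the 8 arrays the signals of the pair ran together (Pearson r = 0.937). The call of 1420703_at was lost without mouse 1, 3 or 4, with differences of 0.44, 0.31 and 0.47 (highest adjusted p 0.10), and that of 1420704_at was not. With an offset of 32 on the linear scale, which damps low signals, neither probe set passed (0.42 with adjusted p = 0.097 for 1420703_at and 0.51 with 0.053 for 1420704_at).

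The beta chains, through which the receptors of GM-CSF, IL-3 and IL-5 signal, were abundant in both groups and differed little. *Csf2rb* (1421326_at) had signals of 12.96, 12.88, 12.96 and 12.94 in the controls and 13.13, 12.97, 13.14 and 13.12 with rTFF2. Each rTFF2 value lay above every control value, but the difference of 0.16 (SE 0.07, 95% interval 0.0019 to 0.31) did not pass (adjusted p = 0.13 from limma). For *Csf2rb2* (1449360_at), the IL-3 specific beta chain, the signals were 12.58, 12.41, 12.56 and 12.56 against 12.59, 12.51, 12.69 and 12.72. These groups overlapped, and the difference of 0.10 (SE 0.07, 95% interval -0.06 to 0.26) did not pass (adjusted p = 0.34). A probe set annotated to both genes, 1450200_s_at, which is outside the 13, had signals of 4.97, 4.76, 4.90 and 5.16 against 5.48, 5.01, 5.44 and 6.07. Its difference of 0.55 (SE 0.11) passed with the mouse block (adjusted p = 0.011) and not without it (0.073), and it cannot be assigned to either gene.

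*Il3ra* (1419712_at), the alpha chain that binds IL-3, rose from a level just above background. Its signals were 3.38, 3.68, 3.82 and 3.72 in the controls, 3 of them above the background level, and 3.95, 3.89, 4.14 and 4.27 with rTFF2. The groups did not overlap, and the mean rose from 3.65 ± 0.19 (SD, n = 4) to 4.06 ± 0.18 (SD, n = 4). The difference was 0.41 (SE 0.09, 95% interval 0.21 to 0.62), 1.33-fold (1.16 to 1.53), with an adjusted p of 0.013 from limma. Without mouse 1 the difference was 0.36 (adjusted p = 0.060) and without mouse 4 it was 0.37 (0.056), so the call was lost in these smaller fits while the size changed little. With an offset of 32 on the linear scale the difference was 0.13.

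*Csf1r* encodes the receptor of macrophage colony-stimulating factor and was expressed strongly, with 3 probe sets that gave nearly the same small difference. Probe set 1419872_at had signals of 12.69, 12.53, 12.75 and 12.72 in the controls and 12.80, 12.79, 12.96 and 12.98 with rTFF2, without overlap. The difference was 0.21 (SE 0.07, 95% interval 0.05 to 0.37, adjusted p = 0.061 from limma). Probe set 1419873_s_at gave 11.91, 11.68, 11.98 and 11.96 against 12.04, 11.80, 12.20 and 12.33, a difference of 0.21 (SE 0.07, adjusted p = 0.083). Probe set 1423593_a_at gave 10.12, 9.95, 10.18 and 10.24 against 10.21, 9.98, 10.44 and 10.60, a difference of 0.19 (SE 0.08, adjusted p = 0.14). In both of the latter the groups overlapped, with the rTFF2 culture of mouse 2 within the range of the controls. All 3 were higher with rTFF2 in 4 of 4 mice, and their differences lay within 0.024 of each other.

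*Kit*, the receptor of stem cell factor, rose by one probe set and could not be read by the other. Probe set 1452514_a_at had signals of 4.58, 5.73, 4.13 and 4.12 in the controls and 5.53, 5.96, 5.40 and 5.39 with rTFF2. The control of mouse 2 stood above 3 of the 4 rTFF2 cultures, so the groups overlapped, and the rise within mice was 0.95, 0.23, 1.27 and 1.27. The mean went from 4.64 ± 0.76 (SD, n = 4) to 5.57 ± 0.27 (SD, n = 4), a difference of 0.93 (SE 0.17, 95% interval 0.52 to 1.34) or 1.91-fold (1.44 to 2.52). Paired by mouse, the adjusted p was 0.0082 from limma, and without the block it was 0.074. With an offset of 32 the difference was 0.45 (adjusted p = 0.042). Probe set 1415900_a_at had signals of 2.45, 2.63, 2.23 and 2.20 against 2.84, 2.79, 2.39 and 2.52, below the background level on all 8 arrays. Its difference of 0.26 (SE 0.07) had an adjusted p of 0.043 with the block and 0.20 without it, and no fold is given. The rise was larger with 1452514_a_at in 4 of 4 mice, by 0.67 ± 0.46 (SD, exact sign-flip p = 0.125, the smallest possible).

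*Flt3*, the receptor of the ligand that supports dendritic cell precursors, and *Epor*, the erythropoietin receptor, were not above background on any array. *Flt3* (1419538_at) had signals of 2.42, 2.53, 2.41 and 2.55 in the controls and 2.42, 2.40, 2.41 and 2.52 with rTFF2, a difference of -0.04 (SE 0.07, adjusted p = 0.71 from limma). *Epor* (1423344_at) had signals of 2.66, 2.58, 2.64 and 2.60 against 2.49, 2.47, 2.59 and 2.67, a difference of -0.07 (SE 0.07, adjusted p = 0.54). Neither gene rose above the background level with rTFF2, and a change in RNA under that level could not be read.

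**Figure D2:**
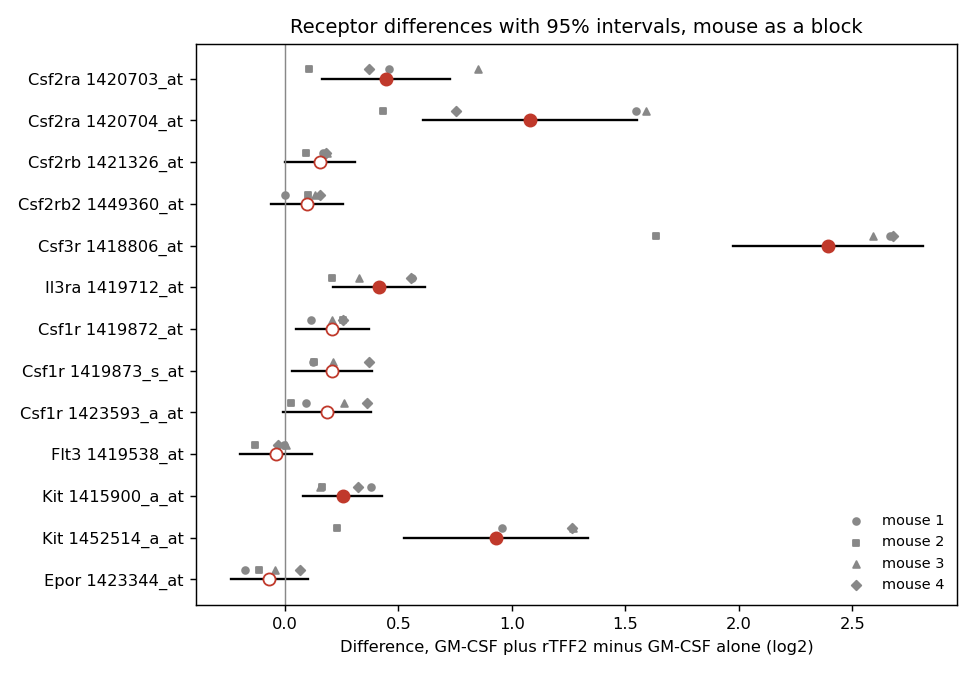
Difference in log2 signal, rTFF2 minus control, of each receptor probe set, with grey symbols for single mice and the mean with its 95% interval from limma paired by mouse, filled where the adjusted p was under 0.05. *Csf3r* (2.39) stands apart to the right, *Csf2ra* 1420704_at (1.08) and *Kit* 1452514_a_at (0.93) come next, and the intervals of *Flt3* and *Epor* span 0.

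The genes whose signals followed each risen receptor most closely over the 8 arrays are given as a description. For *Csf3r* they were *Clec4d* (Pearson r = 0.996), *Hnmt* (0.993) and *Fam13b* (0.993), and for *Kit* they were *Lysmd3* (0.989), *Rab32* (0.985) and *Oas1a* (0.980). For *Csf2ra* they were *Cdc37l1* (0.990), *Taok1* (0.977) and *Shoc2* (0.972), and for *Il3ra* they were *Ccpg1* (0.982), *Lsm10* (0.974) and *Nprl2* (0.971). The 8 arrays fall into the 2 culture groups, so any gene that moved between them scores high.

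Marker RNA of several cell types known to carry these receptors differed between the culture groups. All 13 measured neutrophil marker genes, where *Csf3r* is known to be active, were called higher, and 13 of 13 lay above background. The log2 of their summed linear signals, called the summed level here, ranged from 15.2 to 16.1 in the controls and from 16.5 to 16.7 with rTFF2. Such a sum is set mostly by the brightest probe sets of a list. Among the controls mouse 2 was highest, as it was for *Csf3r* and *Kit*. With rTFF2 the order differed, the summed level being highest in mouse 4 (16.7), *Csf3r* in mouse 1 (8.82) and *Kit* in mouse 2 (5.96). Of 11 basophil and mast cell markers 7 rose and 0 fell, and their summed level ranged from 7.64 to 8.96 against 12.0 to 12.9. Within this list *Mcpt8*, a protease of basophils, went from 5.51 to 11.69, whereas *Mcpt4*, *Cma1*, *Tpsab1* and *Tpsb2*, proteases of mature mast cells, were at background. Of 8 stem and progenitor markers, 4 rose (*Hoxa9*, *Gata2*, *Myb* and *Sox4*) and *Cd34* fell by 1.67, with a summed level of 8.41 to 8.91 against 9.19 to 9.76. *Meis1*, *Mecom* and *Erg* of that list were at background. Over all genes, 27.7% were called in either direction. The part of these cell types in the rise of *Csf3r* and *Kit* was not tested.

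Markers of the cells that carry CSF1R, FLT3 or the erythropoietin receptor are given next. Over all genes, 14.5% were called higher and 13.3% lower at an adjusted p under 0.05. The share at an unadjusted p under 0.05 was not counted. Of 13 monocyte and macrophage markers 7 rose and 4 fell, with a summed level of 13.8 to 14.3 against 14.4 to 14.6, lowest in mouse 2 in both groups as for *Csf1r*. Among 10 dendritic cell markers 9 fell and 0 rose, with a summed level of 14.0 to 14.3 against 12.2 to 12.6, while *Flt3* was at background throughout. None of 7 erythroid markers was called (0 at an unadjusted p under 0.05), *Hba-a1*, *Klf1*, *Alas2* and *Slc4a1* were at background, and the summed level of the list was 5.29 to 5.46 against 5.25 to 5.33. *Epor* too was at background. Of 7 megakaryocyte markers 4 rose, with a summed level of 11.0 to 12.2 against 13.4 to 13.6. The brightest of them was *Pf4*, which went from 11.75 to 13.32. The platelet glycoprotein genes *Gp1bb*, *Gp5* and *Gp9* were at background, with differences of -0.20, -0.15 and -0.05 that did not pass. Of 10 T and NK cell markers 1 fell (*Cd8a*) and of 8 B cell markers 0 were called (1 higher and 2 lower at an unadjusted p under 0.05), and 0 of either list lay above background.

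**Figure D3:**
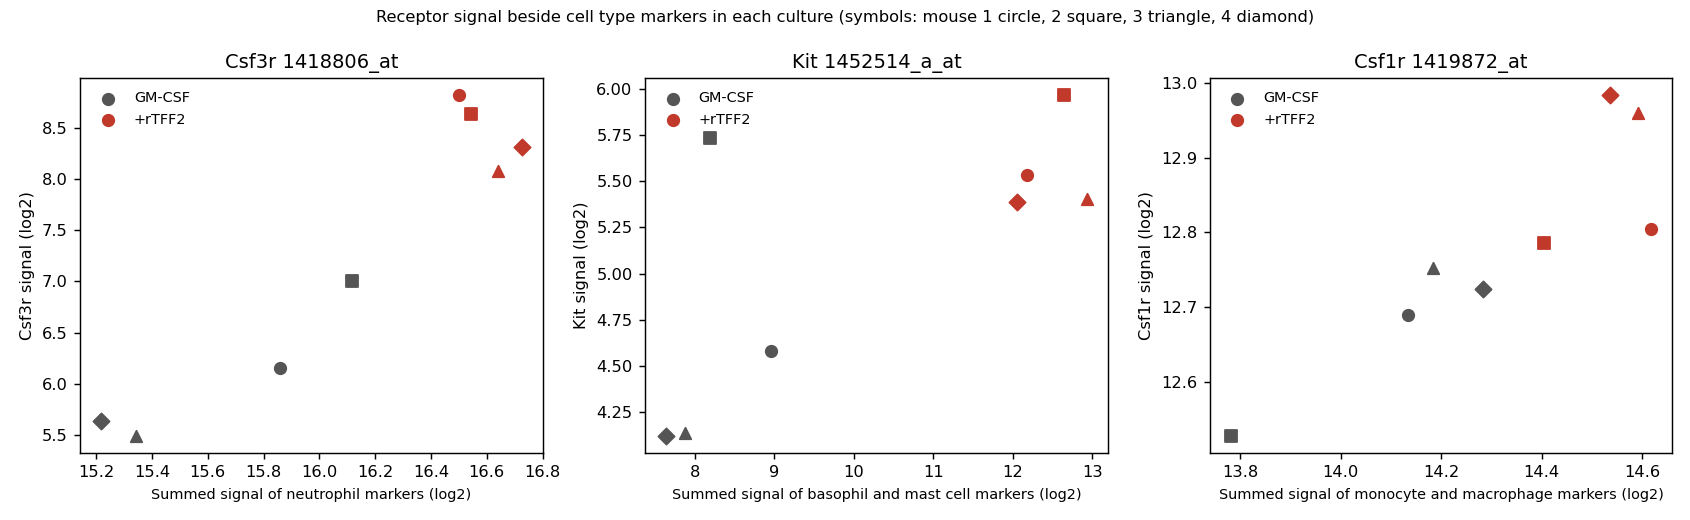
Log2 signal of *Csf3r* (1418806_at), *Kit* (1452514_a_at) and *Csf1r* (1419872_at) on the vertical axes, 1 point per culture, with the shape giving the mouse and red marking rTFF2. The horizontal axes give the log2 of the summed linear signals of neutrophil, basophil and mast cell, and monocyte and macrophage markers. In the middle panel the control of mouse 2 has a *Kit* signal of 5.73, apart from the other controls (4.12 to 4.58). Its summed marker level (8.19) lies within their range (7.64 to 8.96).

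Of the 11 ligand genes listed 7 were measured, and most of these lay at background in the cultures. No ligand of FLT3 or of the erythropoietin receptor was among them. Of 7 measured ligand genes, 1 lay above background, 2 were called higher and 0 lower (2 and 0 at an unadjusted p under 0.05), with a median difference of 0.11 against -0.03 over all genes, of which 27.7% were called. *Csf1*, the ligand of CSF1R, rose from 10.82 ± 0.24 (SD, n = 4) to 11.49 ± 0.45 (SD, n = 4), by 0.67 (SE 0.10, adjusted p = 0.0032 from limma, 0.050 without the block). Its other probe sets differed by 0.83, which passed, and by 0.26 and 0.20, which did not. *Csf3*, which encodes G-CSF, was called higher with signals of 2.19 and 3.15, but both lay under the background level. *Csf2*, *Il3* and *Kitl*, which were looked up after their values were seen, were at background with differences of 0.08, 0.16 and 0.00 that did not pass.

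Among the receptor-proximal signalling genes, which pass the signal on inside the cell, 9 of 22 rose and 4 fell, with a median difference of 0.21, beside 14.5% of all genes called higher and 13.3% called lower. *Gab1*, an adaptor that docks other signalling proteins, rose from 3.68 to 5.70, by 2.02 (SE 0.15, adjusted p = 3.6e-04 from limma), and all 3 of its probe sets passed. The tyrosine kinase gene *Syk* rose by 0.71 (adjusted p = 0.0011), and *Stat3*, through which the G-CSF receptor signals, rose by 0.65 (0.0014). In the other direction, *Jak2*, the kinase bound by the beta chain and the erythropoietin receptor, fell by 0.47 (SE 0.07, adjusted p = 0.0041). The STAT5 genes, named after their values were seen, moved apart: *Stat5a* fell by 0.63 (adjusted p = 0.014) and *Stat5b* rose by 0.60 (0.0099).

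Of the genes that limit or end receptor signals 5 of 17 were higher and 2 lower (median 0.10), beside 27.7% of all genes called in either direction. *Spry2*, an inhibitor of receptor tyrosine kinase signals, rose by 1.27 (SE 0.07, adjusted p = 1.2e-04 from limma), but its other probe set, at background, differed by 0.05. *Socs3*, a brake on the G-CSF receptor, rose by 0.81 (0.0016), and *Dusp6*, a phosphatase of ERK kinases, by 0.60 (0.0016). *Socs2*, a STAT5 target, fell by 0.77 (0.0023). Of 7 related receptor chains 0 rose and 2 fell (0 and 3 at an unadjusted p under 0.05, median -0.10), a share near that of all genes called. These were *Il6st*, the gp130 chain of the IL-6 receptor, which fell by 0.91 (adjusted p = 6.6e-04), and *Lepr*, the leptin receptor, which fell by 0.90 (0.0055) to under the background level.

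Of 12 genes induced by growth factors 3 rose and 5 fell (median -0.08), beside 27.7% of all genes called in either direction. *Il2ra*, the alpha chain of the IL-2 receptor, fell from 7.69 to 4.10, by 3.59 (SE 0.21, adjusted p = 1.5e-04 from limma). *Ccnd1* and *Ccnd2*, which encode D cyclins of the cell cycle, fell by 3.04 (2.8e-04) and 1.03 (0.0013). *Pim1*, a survival kinase gene induced by STATs, rose by 0.74 (6.8e-04).

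Of 11 genes of transcription factors known to act at receptor genes 6 rose and 1 fell (median 0.43), beside the same 14.5% and 13.3% of all genes. *Gfi1*, a repressor needed for neutrophils, rose from 5.28 ± 1.18 (SD, n = 4) to 7.89 ± 0.15 (SD, n = 4), by 2.60 (SE 0.37, adjusted p = 0.0029 from limma). *Myb*, a progenitor factor, rose by 2.54 (0.0045), and *Gata2*, which is active in progenitors, mast cells and basophils, rose by 1.14 (0.0029). *Klf4*, a factor of monocyte development, fell by 1.16 (0.0016). *Spi1* and *Cebpa*, which encode PU.1 and a C/EBP factor whose sites were searched above, differed by 0.15 (adjusted p = 0.42) and 0.12 (0.38) and were looked up after their values were seen.

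**Figure D4:**
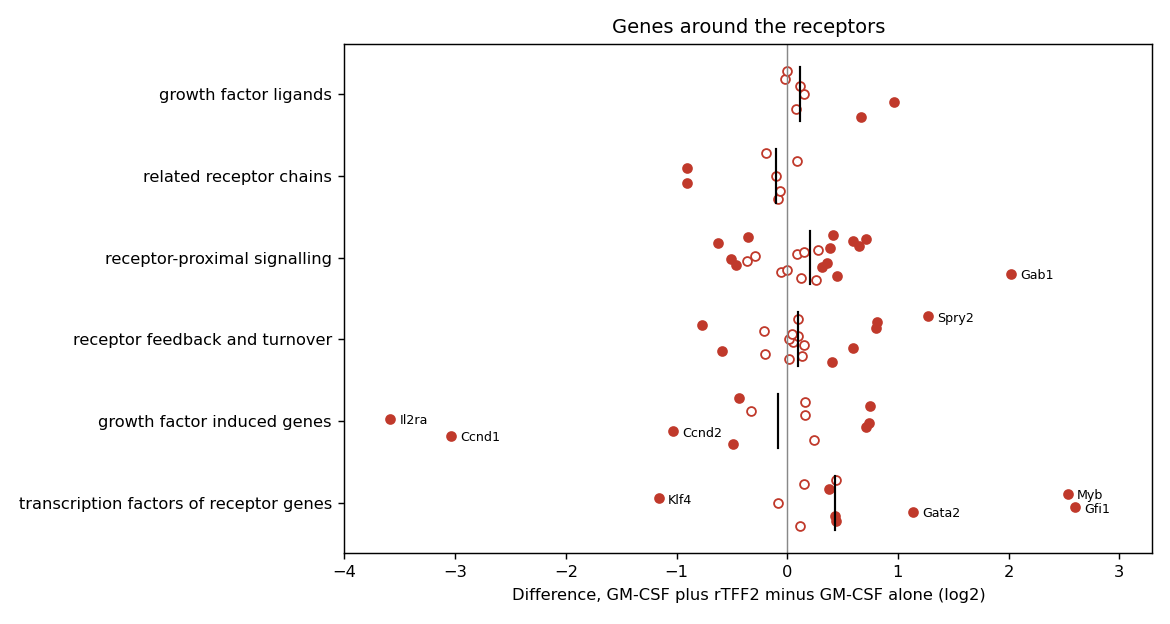
Difference in log2 signal, rTFF2 minus control, of each measured gene of the 6 pathway lists, 1 point per gene, filled where it passed the threshold, with a bar at the median of each list. *Il2ra* (-3.59) and *Ccnd1* (-3.04) lie farthest to the left, and *Gfi1* (2.60), *Myb* (2.54) and *Gab1* (2.02) farthest to the right.

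A macrophage marker gene and RNA quality were also looked at, which does not check the sample labels. *Adgre1*, a macrophage surface marker gene, had log2 signals of 11.76 and 11.74, so after 7 days the cultures of sorted IMCs expressed it strongly in both groups. The 3′ minus 5′ signal of *Actb*, a measure of RNA integrity, was 0.53 ± 0.09 in the controls and 0.70 ± 0.05 with rTFF2 (SD, n = 4 each), higher with rTFF2 in 4 of 4 mice. With this value as a covariate, *Csf3r* (difference 3.15, adjusted p = 0.0017 from limma) and *Kit* 1452514_a_at (1.71, 0.0035) passed, whereas *Csf2ra* (0.79 with adjusted p = 0.087 for 1420703_at and 1.58 with 0.064 for 1420704_at) and *Il3ra* (0.61, 0.094) did not, although the differences of all of them were larger than without it. The *Actb* values of the groups did not overlap (0.42 to 0.62 in the controls, 0.66 to 0.74 with rTFF2). This fit therefore cannot separate RNA integrity from rTFF2, whether a probe set passed it or not. The part of RNA integrity in the results was not tested further. Median centring of the arrays changed the share of all calls that were higher from 53.3% to 42.7%. The median difference of all probe sets was then -0.07 in place of -0.02. Of the 13 receptor probe sets 4 were called higher and 0 lower, beside 2593 of all 22626 probe sets called higher.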

How the data were processed

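RNA of 8 cultures (4 control, 4 rTFF2) was measured on Affymetrix mouse arrays. The authors deposited log2 signals from GCRMA, which corrects background, normalizes arrays to each other and summarizes the probes of a probe set (GCRMA 2.30.0 and affy 1.36.0 per the submitters' processing notes). They were not renormalized, and scanner files were not used here. Array medians lay between 4.10 and 4.21. Array number, not read depth, limits the precision.

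Values of 22626 probe sets, without 64 control probe sets, were tested with limma 3.58.1 in R 4.3.3, with the mouse as a block and Benjamini-Hochberg adjustment over all of them (threshold 0.05). The methods name limma and no pairing. By the methods each animal supplied both cultures. Which cultures shared an animal was inferred from the number that ends each sample title, taken here as the mouse number. Deviations from group means in 12996 probe sets above background had correlations of 0.05 to 0.54 within a mouse and -0.54 to 0.34 across mice. The rTFF2 cultures of mice 2 and 4 were closest to the control of the same number (0.54 and 0.39). That of mouse 1 was closer to control 2 (0.16) than to control 1 (0.05). That of mouse 3 was closer to control 4 (0.34) than to control 3 (0.31), so these values do not settle the pairing. A gene was represented by its brightest probe set with 1 symbol, symbols being those of the platform annotation (all 9 matched RefSeq).

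The receptors and all gene lists were chosen with earlier results of these data known. All receptors were named, with up to 4 genes of each pathway list that had the smallest adjusted p among those past the threshold in the same direction in 4 of 4 mice. Lists are given as counts and medians with no test. The fit was tested on simulated data. The alternatives were no block, a filter on dim probe sets, quantile normalization, median centring, an offset of 32, a trended robust prior, array weights, the *Actb* covariate, omission of each mouse, the mean of a gene's probe sets, a 0.01 threshold and testing for more than a 2-fold change. A background level without *Mbp* and *Cyp11a1* (3.19, 41 genes) was added after seeing the data.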

Additional observations from a re-analysis of the deposited data

Results flagged for a closer look

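In 4 of 39 sets of 4 values, a single mouse lay far from the other three by Dixon's test; about 1 set in 20 is marked by chance. The rise of *Csf3r* was 1.64 in mouse 2, well under that of the other animals. With rTFF2, *Csf2rb* was lowest in mouse 2 (12.97), and in the controls *Csf2rb2* was lowest in mouse 2 (12.41). *Flt3*, at background, was highest with rTFF2 in mouse 4 (2.52).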

How the results depend on the processing

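The count of receptor probe sets called lower was 0 in every setting run, no called receptor difference changed sign, and *Csf3r* passed in all 13 alternatives (difference 1.93 to 3.15, adjusted p 2.2e-05 to 0.010 from limma). Without the replicate block that pairs cultures by mouse, 3 receptor probe sets and 2 receptor genes were called higher, in place of 6 and 4, and 4927 probe sets in all. With the *Actb* covariate 2 probe sets and 2 genes were called, 12 pathway genes and 1588 probe sets in all. At a threshold of 0.01 the counts were 3, 2 and 2906 in all, and against a 2-fold change 1, 1, 3 pathway genes and 173 in all. Leaving out each mouse gave 3 to 5 probe sets, 2 to 4 genes and 3609 (without mouse 1) to 5006 (without mouse 2) in all. A trended robust prior gave 9 probe sets and 6 genes, with 6135 probe sets in all, and median centring 4 and 3, with 6069 in all. *Csf1r* 1419872_at and *Csf2rb* passed with that prior and with an offset of 32, and *Csf1r* 1419873_s_at with the prior. With that offset both *Csf2ra* probe sets lost their calls (adjusted p 0.097 and 0.053), and the differences of *Csf2ra* 1420704_at, *Kit* 1452514_a_at and *Il3ra* shrank from 1.08 to 0.51, from 0.93 to 0.45 and from 0.41 to 0.13. *Kit* 1415900_a_at lost its call in 9 of 12 alternatives. *Flt3*, *Epor* and that probe set were too dim for the filtered fit, and the added background level left 10 probe sets above it. The causes were not tested. Signals near background limit what can be said of *Il3ra*, *Flt3*, *Epor* and the dimmer *Kit* probe set.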
